A study of Mus musculus with 8 samples.

Results

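The genes described here encode the enzymes and carriers that take glucose to lactate or to carbon dioxide: the glucose carriers, the steps of glycolysis, the lactate step with its membrane carriers, the entry of pyruvate into mitochondria, the citric acid cycle and 2 creatine kinases. They were taken as a list of 47 gene symbols. Of these, 46 had a row among the 21828 genes analysed, and the remaining symbol, Pkm, names the same gene as the row Pkm2, so that pyruvate kinase is counted once. Messenger RNA was sequenced from the retina of slc:ICR mice, an outbred strain with no genetic change named in the labels, with 1 library for each of 8 conditions. Whole retina was taken at embryonic day 15 (E15) and 18 (E18). At postnatal days 2, 5 and 8 (P2, P5 and P8), dissociated cells of pooled retinas were sorted with an antibody to Cd73, the surface enzyme encoded by Nt5e that marks rod precursors and rods, into a Cd73-positive (Cd73PC) and a Cd73-negative (Cd73NC) fraction. Both fractions of a stage came from the same retinal samples, so they form a pair. The negative fraction is everything that the gate left out, and the whole embryonic retina has no sorted counterpart. Because each condition has 1 library, a difference at a single stage or between ages has no replicate error and compares libraries. The difference between fractions was tested over the 3 stage pairs.

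Glycolysis splits glucose into pyruvate in the cytoplasm, and pyruvate is either reduced to lactate by lactate dehydrogenase or carried into mitochondria, where the pyruvate dehydrogenase complex feeds it to the citric acid cycle. The retina, and the photoreceptors in particular, are known for turning much of their glucose into lactate even when oxygen is present. Many of these steps are served by paralogs, genes of common descent that encode alternative forms of the same enzyme, whose kinetics or regulation differ.

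Levels are given as FPKM, read fragments scaled to transcript length and to the mapped total of the library. Ratios are on the log2(FPKM + 1) scale, which understates the change of low genes, and a gene was counted as higher or lower in a comparison when its FPKM + 1 differed by 1.5-fold or more and its FPKM was at least 1 in either library. All 10 rod markers examined were higher in Cd73PC at each stage, and Nt5e itself had an FPKM of 2.43, 31.4 and 9.38 in the Cd73NC libraries of P2, P5 and P8 and 97.3, 131 and 124 in the Cd73PC ones. The summed FPKM of the rod markers in Cd73NC was 3.81%, 15.7% and 8.45% of that in Cd73PC at P2, P5 and P8, so the negative fraction held some rod RNA, most at P5. Markers of progenitors and dividing cells were lower in Cd73PC for 10 of 10 genes at every stage, and those of Müller glia for 6 of 7, 7 of 7 and 8 of 8 measured genes at P2, P5 and P8. Cone markers were higher in Cd73PC for 3 of 5, 1 of 6 and 3 of 8, Gngt2 was higher at every stage, and 1 of the 6, Gnat2, was lower at P5 (log2 -0.64). Ganglion cell markers summed to an FPKM of 965 at E15 and to 21.1 or less in all sorted libraries. Hemoglobin and other red cell markers summed to an FPKM of 7007 in P8 Cd73NC against 2764 in P8 Cd73PC, and 7 of 7 microglia markers were higher in Cd73PC at P2 but at neither later stage. The part of these cell types in the results below was not tested. In such bulk libraries, fewer cells of a type and less RNA per cell cannot be told apart.

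As a group the 46 genes held 1.81% of the summed FPKM at E15 and 2.19% at E18. The shares in Cd73NC and Cd73PC were 2.11% against 2.06% at P2, 2.50% against 2.36% at P5, and 2.63% against 2.35% at P8. The total thus differed little between fractions, while the summed shares of the steps differed in direction. The lactate genes held 0.252%, 0.384% and 0.340% in the 3 Cd73NC libraries and 0.517%, 0.579% and 0.562% in the Cd73PC ones, and these ranges did not overlap. The share rests on Ldha, which made up 1683 of the 1972 FPKM of these genes in P2 Cd73PC, and of the 6 lactate genes, 2 were higher and 3 lower at P2 and P5, and 2 and 2 at P8. The summed share of the 10 genes from aldolase to pyruvate was lower in Cd73PC at each stage, with 0.852% against 0.698% at P2, 1.02% against 0.899% at P5 and 1.27% against 1.02% at P8, although single genes of the step were higher (3 higher and 4 lower at P2, 2 and 4 at P5, 0 and 4 at P8). Single genes of the group were among the most abundant of all: Ldha was the 4th highest gene of the whole library in Cd73PC at P2 and P5 and the 10th at P8, and Ckb was the 3rd, 2nd and 4th highest in Cd73NC at P2, P5 and P8.

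**Figure D1:**
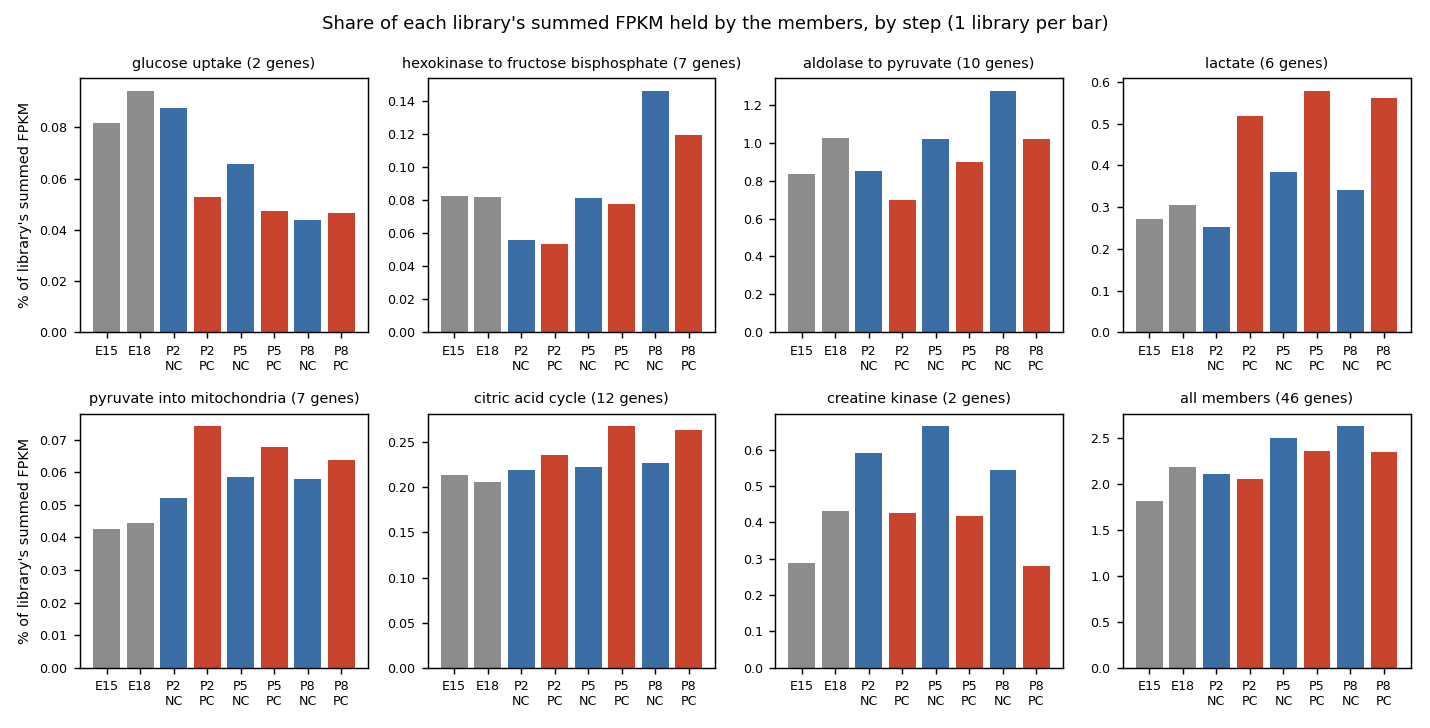
Share of the summed FPKM of each library (percent, from 0) held by the members of each step, with 1 bar per library (grey, whole retina; blue, Cd73NC; red, Cd73PC). The lactate bars are higher in Cd73PC at each stage, from 0.517% at P2 to 0.562% at P8, and the creatine kinase bars are higher in Cd73NC.

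Between the fractions at P2, 7 of the 46 genes were higher in Cd73PC, where 14.5% of all genes were, and 16 were lower, against 25.0% of all genes. At P5, 9 were higher and 15 lower, beside 12.3% and 27.0% of all genes, and at P8, 6 were higher and 15 lower, beside 13.0% and 31.3%. As percentages, the members came to 15.2%, 19.6% and 13.0% higher and to 34.8%, 32.6% and 32.6% lower. At P8 both shares lie near the background, as does the higher share at P2. The median log2 ratio of the members, -0.04, 0.02 and -0.07 at the 3 stages, lay close to 0 against -0.14, -0.18 and -0.23 over all genes. The same 4 genes, Ckmt1, Ldha, Pdk2 and Slc16a8, were higher at all 3 stages (8.70% of members, with 6.49% of all genes). Lower at all 3 stages were 11 genes, Eno1, Idh2, Ldhb, Pcx, Pdk1, Pfkp, Pgam1, Pgk1, Slc16a3, Slc2a3 and Tpi1 (23.9% of members, with 14.3% of all genes). Another 16 passed the threshold at 1 or 2 stages and 15 at none. At a threshold of 2-fold, Ckmt1 alone remained higher at all 3 stages and Eno1, Pcx, Pdk1, Pgk1, Slc16a3 and Slc2a3 lower. With an FPKM of 10 or more required, 3 and 9 genes remained. The share of all genes was not taken for these last counts, so they do not set the members against other genes.

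The difference between fractions was tested over the stage pairs with limma, with stage as the block, on the log2(FPKM + 1) values of 13057 genes with an FPKM of 1 or more in any of the 6 sorted libraries. The stages are not replicates of 1 condition, so the error here starts from the spread of the difference over the 3 ages, with 2 residual degrees of freedom. The limma fit then draws the variance of each gene toward a trend over all genes, so the SE is not the gene's own spread. With 3 pairs the smallest exact 2-sided p is 0.25, so the smaller limma p values rest on its model. At a Benjamini-Hochberg adjusted limma p under 0.05, 6 members were higher in Cd73PC (13.0%, with 8.9% of all genes) and 13 lower (28.3%, with 19.2% of all genes). The 6 were Ckmt1, Ldha, Pdk2, Slc16a8, Pfkfb2 and Suclg1, and the 13 were the 11 genes above, Ckb and Pfkl. Of the higher genes, Ckmt1 had a mean log2 difference of 2.35 ± 0.17 (SE, adjusted p 0.00282), Slc16a8 of 1.22 ± 0.19 (SE, adjusted p 0.0103), Ldha of 1.22 ± 0.20 (SE, adjusted p 0.012) and Pdk2 of 1.36 ± 0.24 (SE, adjusted p 0.0145) in limma. Of the lower genes, Slc16a3 had -2.13 ± 0.14 (SE, adjusted p 0.00282), Pdk1 -1.85 ± 0.20 (SE, adjusted p 0.0046), Pgk1 -1.23 ± 0.14 (SE, adjusted p 0.00508), Eno1 -1.16 ± 0.15 (SE, adjusted p 0.00601) and Ldhb -0.86 ± 0.13 (SE, adjusted p 0.00904) in the same limma test. Ckb and Pfkfb2 lay close to the limit, with adjusted limma p values of 0.0497 and 0.0483, and Aldoa, at 0.0543, missed it. Aldoc, whose difference changed with age, had 1.02 ± 0.72 (SE, adjusted p 0.323) by limma. Median-ratio scaling gave 10 members higher and 11 lower by limma, with 11.3% and 15.6% of all genes. Without the P5 pair, 1 member was higher (Ckmt1) and 1 lower (Slc16a3) by limma, with 4 and 12 at an unadjusted p under 0.05. Of all genes, 1.37% and 0.842% were then called. With no block, 0 members were higher and 5 lower (5 and 9 unadjusted), with 3.13% and 5.05% of all genes. With no filter on low values no member was called in limma (10 and 13 unadjusted), and 0% of all genes were.

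The split between higher and lower genes depended on the scaling of the libraries. Median-ratio scaling moved the median of all genes up by 0.14 at P5 and 0.16 at P8 and left 12 members higher and 11 lower at P5, beside 15.9% and 22.8% of all genes. It also left 7 of the 11 genes lower at all 3 stages, without Idh2, Ldhb, Pgam1 and Tpi1. Quantile normalization moved the median of all genes up by 0.11 at P2, 0.21 at P5 and 0.27 at P8. All genes then stood at 17.7% higher and 18.7% lower at P5 and at 20.9% and 21.6% at P8, while the members stood at 8 and 14 at P5 and at 6 and 15 at P8, and Pfkfb2 joined and Idh2 left the genes past the threshold at all 3 stages.

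**Figure D2:**
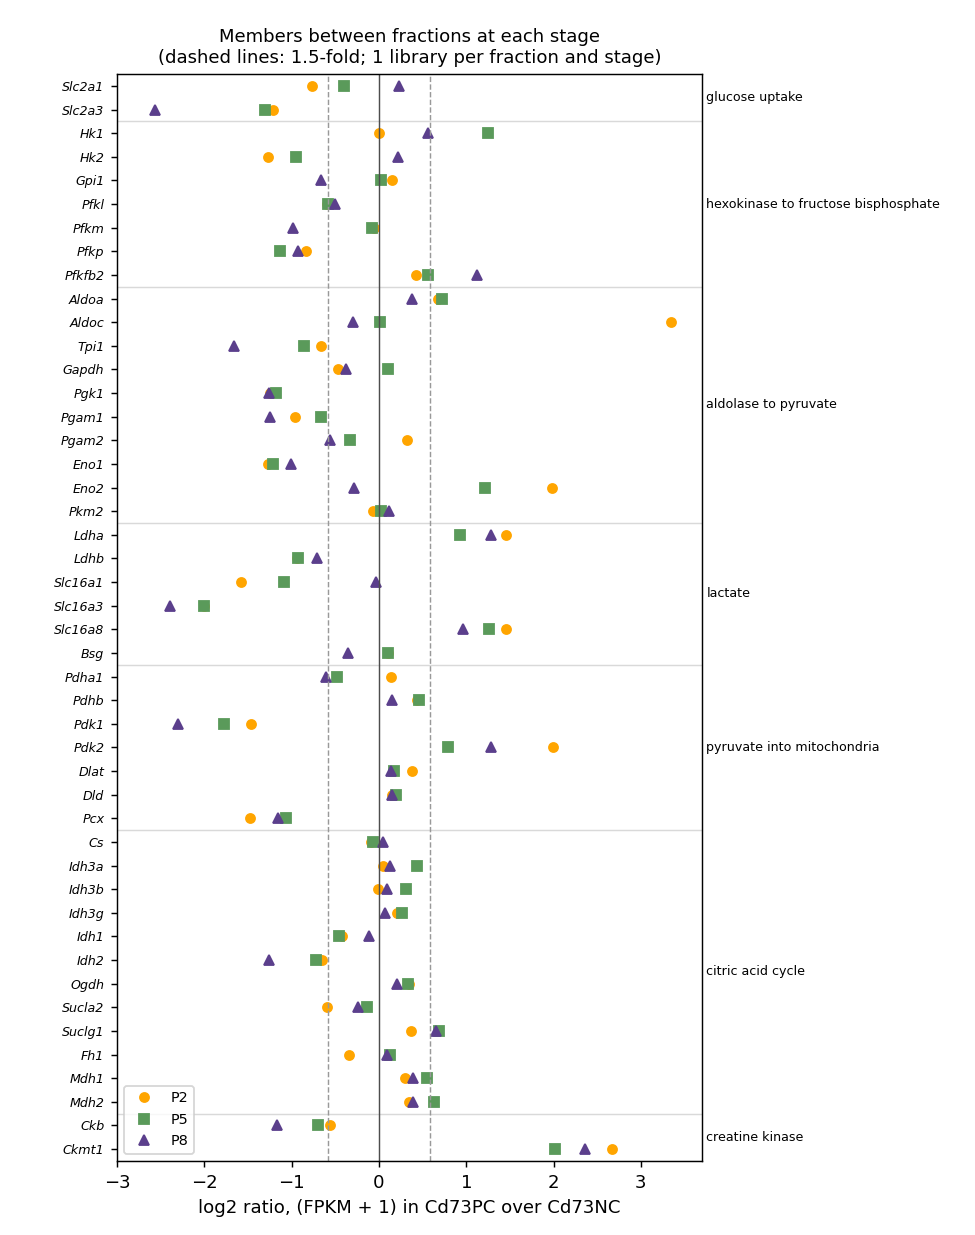
Log2 ratio of FPKM + 1 in Cd73PC over Cd73NC (horizontal axis) for each of the 46 genes, ordered by step, at P2 (circles), P5 (squares) and P8 (triangles), with 1 library per fraction and stage and dashed lines at 1.5-fold. Ckmt1 lies to the right at every stage (2.67, 2.02 and 2.36) and Slc16a3 to the left (-2.01, -1.998 and -2.39), and most citric acid cycle genes lie between the dashed lines.

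Glucose enters retinal cells through facilitative carriers, of which Slc2a1 encodes the widespread GLUT1 and Slc2a3 the high-affinity GLUT3. Slc2a1 had an FPKM of 295 at E15 and 349 at E18, 343 (Cd73NC) and 200.4 (Cd73PC) at P2, then 233 against 177 at P5 and 142 against 167 at P8. Slc2a3 stood at an FPKM of 7.81 and 7.33 in the E15 and E18 retina, and its Cd73NC and Cd73PC levels were 4.58 against 1.41 at P2, 3.40 against 0.789 at P5, and 15.9 against 1.88 at P8. Slc2a1 was highest in the embryonic retina and P2 Cd73NC, and the fractions overlapped, whereas all 3 Cd73PC values of Slc2a3 lay below all 3 Cd73NC values. Slc2a1 was 1.71-fold lower in Cd73PC at P2 and within 1.5-fold at P5 and P8, and it made up at least 89.9% of the summed FPKM of the pair in every library. Slc2a3 was 2.32-, 2.46- and 5.89-fold lower at P2, P5 and P8.

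Hexokinases phosphorylate glucose as it enters. Hk1 encodes the form bound to mitochondria that is general in neurons, and Hk2 an inducible form. Hk1 had an FPKM of 29.9 at E15 and 36.7 at E18, 21.4 (Cd73NC) and 21.3 (Cd73PC) at P2, then 26.3 against 63.9 at P5 and 99.4 against 147 at P8. The FPKM of Hk2 was 10.3 at E15, 6.92 at E18, 6.25, 5.18 and 5.96 in the P2, P5 and P8 Cd73NC libraries, and 2.0, 2.19 and 7.13 in the Cd73PC ones. Hk1 was low and equal in the fractions at P2 and climbed in both, whereas Hk2 in Cd73PC started under the other libraries and reached the Cd73NC level by P8. From P2 to P8, Hk1 rose 6.62-fold in Cd73PC, the largest change of any member in that fraction, and 4.49-fold in Cd73NC. Between the fractions, Hk1 passed the threshold at P5, 2.37-fold higher in Cd73PC, and Hk2 at P2 and P5, 2.42- and 1.94-fold lower.

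Gpi1, the glucose phosphate isomerase, ranged over an FPKM of 101 to 270.5 and was 1.59-fold lower in Cd73PC at P8. Of the 32-base windows of its longest annotated transcript, 48.2% also matched at another place in the genome, so its level is uncertain. Phosphofructokinase, the main control point of glycolysis, is a tetramer built from liver (Pfkl), muscle (Pfkm) and platelet (Pfkp) subunits. Pfkl had an FPKM of 82.2 at E15 and 81.6 at E18, 57.3 (Cd73NC) and 37.6 (Cd73PC) at P2, then 69.0 against 45.6 at P5 and 83.5 against 58.4 at P8. Pfkm stood at an FPKM of 23.2 and 23.8 in the E15 and E18 retina, and its Cd73NC and Cd73PC levels were 21.0 against 20.1 at P2, 24.8 against 23.3 at P5, and 37.2 against 18.3 at P8. The FPKM of Pfkp was 14.6 at E15, 15.4 at E18, 10, 27.3 and 27.9 in the P2, P5 and P8 Cd73NC libraries, and 5.18, 11.9 and 14.2 in the Cd73PC ones. All 3 were highest in P8 Cd73NC, and Pfkl made up the largest share of the 3 in every library. Pfkp was lower in Cd73PC at all stages (1.78-, 2.19- and 1.90-fold), Pfkl at P2 and P5, and Pfkm at P8 (1.98-fold). Pfkfb2 encodes a bifunctional enzyme that makes the activator of phosphofructokinase, fructose 2,6-bisphosphate. Pfkfb2 had an FPKM of 3.40 at E15 and 4.48 at E18, 3.83 (Cd73NC) and 5.46 (Cd73PC) at P2, then 4.79 against 7.57 at P5 and 7.39 against 17.2 at P8. It stood higher in Cd73PC than in Cd73NC in each pair, with log2 ratios of 0.42, 0.57 and 1.12, of which the last passed the threshold.

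Aldolase cleaves the bisphosphate into 2 trioses. Aldoa encodes the muscle form, which many tissues use, and Aldoc the brain form. Aldoa had an FPKM of 365 at E15 and 458 at E18, 297 (Cd73NC) and 473 (Cd73PC) at P2, then 561 against 928 at P5 and 773 against 1007 at P8. Aldoc stood at an FPKM of 2.56 and 9.18 in the E15 and E18 retina, and its Cd73NC and Cd73PC levels were 3.34 against 43.2 at P2, 47.9 against 48.1 at P5, and 80.5 against 65.6 at P8. Aldoa had its lowest value in P2 Cd73NC and its highest in P8 Cd73PC, and the fractions overlapped over the stages. Aldoc in P2 Cd73NC lay with the embryonic retina, so that it was 10.2-fold higher in Cd73PC at P2 and then, with both fractions at FPKM values from 47.9 to 80.5, within 1.5-fold at P5 and P8. Aldoa was 1.59- and 1.65-fold higher in Cd73PC at P2 and P5, and 38.7% of its windows matched elsewhere.

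Tpi1, Gapdh, Pgk1 and Pgam1 encode the next 4 enzymes of the chain, triosephosphate isomerase, glyceraldehyde phosphate dehydrogenase, phosphoglycerate kinase and phosphoglycerate mutase. The FPKM of Tpi1 was 361 at E15, 435 at E18, 327, 357 and 575 in the P2, P5 and P8 Cd73NC libraries, and 206, 196 and 181 in the Cd73PC ones. Pgk1 had an FPKM of 404 at E15 and 598 at E18, 512 (Cd73NC) and 215 (Cd73PC) at P2, then 442 against 195 at P5 and 454 against 188 at P8. Pgam1 stood at an FPKM of 292 and 352 in the E15 and E18 retina, and its Cd73NC and Cd73PC levels were 319 against 163 at P2, 275 against 174 at P5, and 523 against 219.6 at P8. For each of these 3 genes every Cd73PC value lay below every Cd73NC value, and the 2 embryonic libraries lay above all Cd73PC libraries. Tpi1 was 1.58-, 1.82- and 3.16-fold lower in Cd73PC at P2, P5 and P8, Pgk1 2.37-, 2.26- and 2.40-fold and Pgam1 1.95-, 1.58- and 2.37-fold. Gapdh, at an FPKM of 189 to 405, stayed within 1.5-fold between the fractions, as did Pgam2, the muscle mutase, at 1.86 to 5.74. Of 8 skeletal muscle markers, 6 were under an FPKM of 1 in every library, while Acta1 ranged over 8.59 to 16.6 and Mylpf over 1.11 to 5.86. The levels of Tpi1, Gapdh, Pgk1 and Pgam1 are uncertain because near-identical copies of some of these genes exist elsewhere in the genome. Of all 32-base windows of the longest annotated transcript, 94.0% for Pgk1, 93.9% for Pgam1, 85.8% for Gapdh and 37.8% for Tpi1 also matched at another place.

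Enolase has a general form (Eno1) and a neuronal form (Eno2), and neuronal tissue replaces the former with the latter as it matures. Eno1 had an FPKM of 340.1 at E15 and 418 at E18, 468 (Cd73NC) and 194 (Cd73PC) at P2, then 414 against 178 at P5 and 396 against 196 at P8. Eno2 stood at an FPKM of 13.8 and 34.7 in the E15 and E18 retina, and its Cd73NC and Cd73PC levels were 14.5 against 60.1 at P2, 33.7 against 79.8 at P5, and 121 against 99.0 at P8. Eno1 in the 3 Cd73PC libraries was below all other libraries, and Eno2 was lowest at E15 and in P2 Cd73NC and highest in P8 Cd73NC. The ratio of Eno1 to Eno2 was 24.6 at E15 and 12.0 at E18. In Cd73NC and Cd73PC it was 32.3 against 3.22 at P2, 12.3 against 2.23 at P5, and 3.27 against 1.98 at P8. Eno1 was 2.41-, 2.31- and 2.02-fold lower in Cd73PC at the 3 stages. Eno2 was 3.94- and 2.33-fold higher at P2 and P5 and had a log2 ratio of -0.29 at P8. Of the windows of Eno1, 77.0% matched elsewhere.

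Pyruvate kinase, which ends glycolysis, has 2 splice forms of different regulation in the retina, M1 and M2, that the gene-level values do not tell apart. Pkm2 had an FPKM of 1074 at E15 and 1268 at E18, 1169 (Cd73NC) and 1113 (Cd73PC) at P2, then 1282 against 1305 at P5 and 1291 against 1403 at P8. It varied little, and its log2 ratios between fractions were -0.07, 0.03 and 0.12 at P2, P5 and P8. Of its windows, 62.6% matched elsewhere.

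Lactate dehydrogenase is a tetramer of A subunits (Ldha), the form associated with making lactate from pyruvate, and B subunits (Ldhb), associated with the reverse. Ldha spans chr7:54101174-54110997 and Ldhb chr6:142438769-142456463 (NCBI37/mm9). Ldha had an FPKM of 625 at E15 and 762 at E18, 615 (Cd73NC) and 1683 (Cd73PC) at P2, then 956 against 1822 at P5 and 675 against 1643 at P8. Ldhb stood at an FPKM of 116 and 90.9 in the E15 and E18 retina, and its Cd73NC and Cd73PC levels were 120.0 against 62.2 at P2, 103 against 53.7 at P5, and 48.2 against 29.1 at P8. The 3 Cd73PC libraries had the highest Ldha of the 8, well apart from the rest, and for Ldhb each Cd73PC value was below its Cd73NC partner while both fractions declined with age. Ldha was 2.73-, 1.90- and 2.43-fold higher in Cd73PC at P2, P5 and P8, and Ldhb 1.91-, 1.90- and 1.64-fold lower. The ratio of Ldha to Ldhb was 5.38 at E15 and 8.38 at E18, 5.13, 9.27 and 14.0 in the Cd73NC libraries, and 27.1, 33.9 and 56.5 in the Cd73PC ones. It was higher in Cd73PC than in any other library at every stage and rose within each fraction, through Ldhb in Cd73PC, where Ldha itself changed little from P2 to P8 (log2 -0.03). The highest Ldha of the Cd73NC libraries was at P5, where the rod markers of that fraction were also highest. Under quantile normalization the log2 ratio of Ldha at P8 was 0.67 in place of 1.28. Of the windows of Ldha 51.5%, and of those of Ldhb 51.3%, matched elsewhere.

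**Figure D3:**
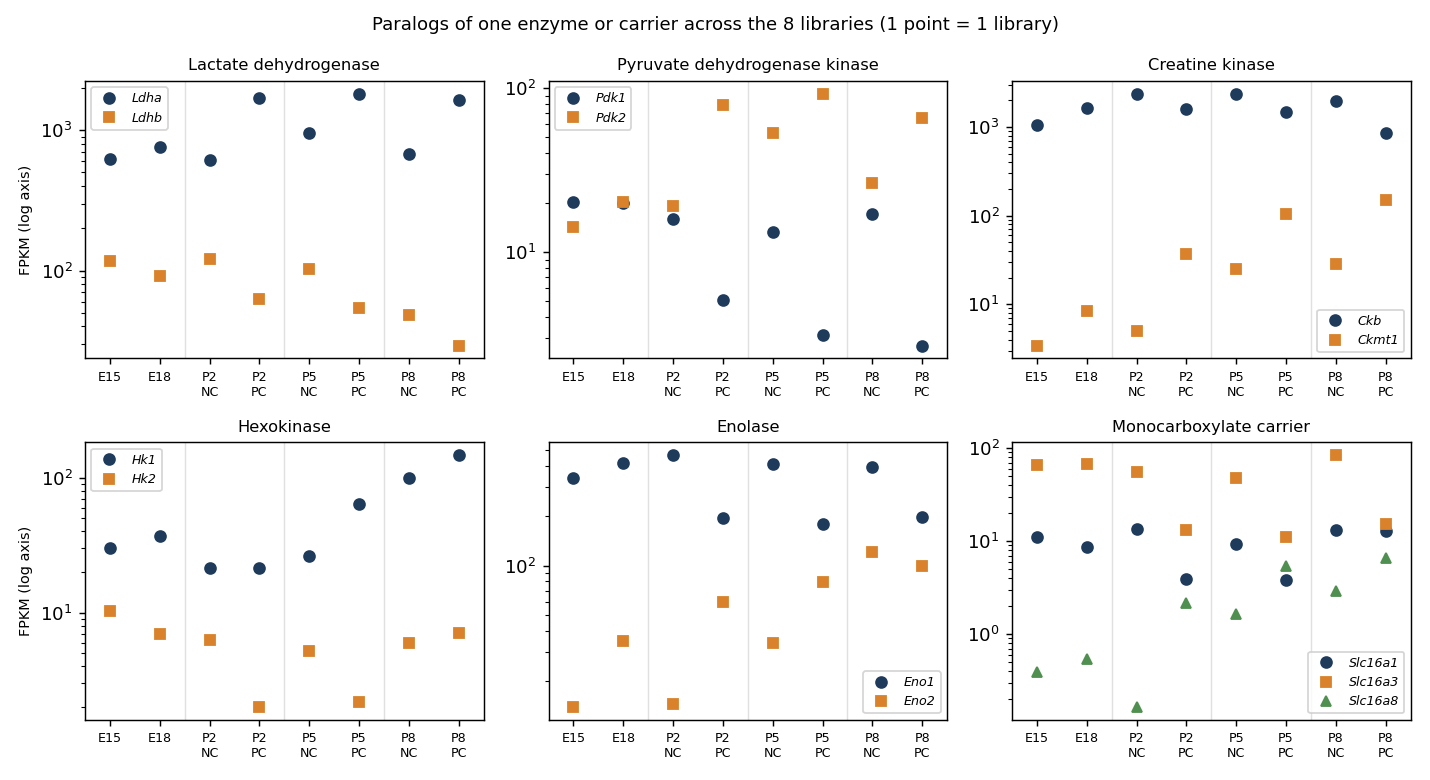
FPKM (log axis) of paralogs of 6 enzymes or carriers in each of the 8 libraries, 1 point per library, with vertical lines between the embryonic retina and the P2, P5 and P8 pairs. Ldha and Ldhb, Pdk1 and Pdk2, and Ckb and Ckmt1 move in opposite directions between Cd73NC and Cd73PC at each stage, and Ckmt1 reaches 149.7 in P8 Cd73PC.

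Lactate crosses membranes through monocarboxylate carriers that pair with basigin (Bsg). Slc16a1 encodes the widespread MCT1, Slc16a3 MCT4, typical of cells that export lactate, and Slc16a8 MCT3, known from the retinal pigment epithelium. Slc16a3 had an FPKM of 66.5 at E15 and 68.3 at E18, 55.8 (Cd73NC) and 13.1 (Cd73PC) at P2, then 47.2 against 11.1 at P5 and 84.4 against 15.3 at P8. Slc16a1 stood at an FPKM of 11.2 and 8.68 in the E15 and E18 retina, and its Cd73NC and Cd73PC levels were 13.7 against 3.92 at P2, 9.25 against 3.81 at P5, and 13.3 against 13 at P8. The FPKM of Slc16a8 was 0.388 at E15, 0.542 at E18, 0.164, 1.67 and 2.90 in the P2, P5 and P8 Cd73NC libraries, and 2.19, 5.38 and 6.60 in the Cd73PC ones. Slc16a3 had the lowest mean ratio of all members: its 3 Cd73PC values lay far below the 3 Cd73NC and the 2 embryonic ones, 4.02-, 4.0- and 5.24-fold under Cd73NC at P2, P5 and P8. Slc16a1 was 2.98- and 2.13-fold lower at P2 and P5 and level at P8, after a 2.84-fold rise in Cd73PC from P2. Slc16a8 was 2.74-, 2.39- and 1.95-fold higher in Cd73PC, at low levels.

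The 3 carriers together had an FPKM of 69.6, 58.2 and 101 over the Cd73NC libraries and 19.2, 20.3 and 34.9 over the Cd73PC ones (P2, P5 and P8), so that the fraction with more Ldha held less carrier RNA at every stage. Like Slc16a8, all 10 rod markers were higher in Cd73PC at each stage. Markers of the pigment epithelium followed Slc16a8 in part. The sum of 8 such markers was 2.02, 27.9 and 43.9 in the Cd73NC libraries and 42.7, 39.6 and 80.5 in the Cd73PC ones, in order of age. From P2 to P5 in Cd73PC this sum fell while Slc16a8 rose. Of the measured pigment epithelium markers, 5 of 5, 2 of 5 and 3 of 6 were higher in Cd73PC and none was lower. Rpe65, a defining gene of that epithelium, was at an FPKM of 0 in both P2 libraries. Its Cd73NC and Cd73PC levels were 0.351 against 0.253 at P5 and 2.59 against 4.26 at P8. The part of rods and of this epithelium in the Slc16a8 result was not tested. Bsg ranged over an FPKM of 189 to 410.1, with log2 ratios between fractions of 0.11, 0.11 and -0.35.

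Pyruvate dehydrogenase is switched off by phosphorylation, and the kinases that do so differ in what controls them: Pdk1 is known as a target of hypoxia signalling, and Pdk2 is the widespread form sensitive to pyruvate. Pdk1 had an FPKM of 20.1 at E15 and 20 at E18, 15.8 (Cd73NC) and 5.09 (Cd73PC) at P2, then 13.2 against 3.13 at P5 and 17.1 against 2.68 at P8. Pdk2 stood at an FPKM of 14.3 and 20.1 in the E15 and E18 retina, and its Cd73NC and Cd73PC levels were 19.0 against 79.0 at P2, 53.0 against 92.5 at P5, and 26.2 against 65.4 at P8. The 3 Cd73PC values of Pdk1 lay below all other libraries and those of Pdk2 above all other libraries. Pdk1 was 2.77-, 3.43- and 4.92-fold lower in Cd73PC and Pdk2 4.0-, 1.73- and 2.44-fold higher. The ratio of Pdk2 to Pdk1 went from 1.2 in Cd73NC to 15.5 in Cd73PC at P2, from 4.03 to 29.6 at P5 and from 1.53 to 24.4 at P8, and was 0.711 at E15 and 1.01 at E18. As with Ldha, the highest Pdk2 of the Cd73NC libraries was at P5. Pdk3 and Pdk4, the other kinases of the family, did not pass the threshold at any stage. Pdk3 lay at an FPKM of 11.3 to 17.5 over the 8 libraries, and Pdk4 was under 1 in all of them.

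Of the complex itself, Pdhb, Dlat and Dld stayed within 1.5-fold between fractions at every stage (with 51.8% of the Pdhb windows matched elsewhere), and Pdha1, the catalytic alpha subunit that the kinases phosphorylate, was 1.52-fold lower in Cd73PC at P8. The other use of mitochondrial pyruvate is its carboxylation to oxaloacetate by Pcx, an enzyme strong in glia. The FPKM of Pcx was 10.3 at E15, 13.9 at E18, 11.5, 7.81 and 6.97 in the P2, P5 and P8 Cd73NC libraries, and 3.5, 3.22 and 2.57 in the Cd73PC ones. Every Cd73PC value was under every other library, 2.79-, 2.09- and 2.23-fold below Cd73NC at P2, P5 and P8. The summed FPKM of the Müller glia markers in Cd73PC was 43.8%, 26.4% and 25.8% of that in Cd73NC at these stages. For the progenitor and cell cycle markers it was 26.1%, 21.6% and 12.4%. With age in Cd73NC, Pcx fell, and the Müller glia sum went from 1104 to 1561 and 1268. The genes in this sum did not move together from P2 to P8. Apoe rose from 110 to 540, and Rlbp1, Car14, Kcnj10 and Aqp4 also rose. Glul (261 to 165), Slc1a3 (146 to 124) and Dkk3 (489 to 200) fell. The part of these cell types in the Pcx result was not tested.

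Creatine kinases store and move high-energy phosphate, Ckb in the cytoplasm of brain-type cells and Ckmt1 at the mitochondrial membrane. Ckb had an FPKM of 1062 at E15 and 1627 at E18, 2338 (Cd73NC) and 1589.7 (Cd73PC) at P2, then 2373 against 1466 at P5 and 1941 against 863 at P8. Ckmt1 stood at an FPKM of 3.41 and 8.52 in the E15 and E18 retina, and its Cd73NC and Cd73PC levels were 4.96 against 36.9 at P2, 25.1 against 105 at P5, and 28.4 against 149.7 at P8. Ckmt1 was lowest at E15 and in P2 Cd73NC and highest in P8 Cd73PC, and for both genes the ranges of the fractions were separate, in opposite directions. Ckmt1 was 6.37-, 4.06- and 5.12-fold higher in Cd73PC, the largest mean ratio of all members. Ckb was 1.62- and 2.25-fold lower at P5 and P8, with a log2 ratio of -0.56 at P2. Ckb outnumbered Ckmt1 by 472 to 1 in P2 Cd73NC and by 5.76 to 1 in P8 Cd73PC. Of the windows of Ckb, 53.5% matched elsewhere, against 0.503% for Ckmt1.

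The DNA just before the start of the 2 members with the highest and the 2 with the lowest mean ratio between fractions is shown because these genes differed most between the fractions. Each is the 250 bases upstream of the start of the gene in the files, read from the NCBIM37 (mm9) genome on the strand of the gene: Ckmt1 at chr2:121184127-121184376 on the plus strand, Pdk2 at chr11:94902686-94902935 on the minus strand, Slc16a3 at chr11:120809548-120809797 on the plus strand and Pdk1 at chr2:71711079-71711328 on the plus strand. Capitals mark ACGTG and GCGTG, the core letters of hypoxia response elements, on either strand.
Ckmt1: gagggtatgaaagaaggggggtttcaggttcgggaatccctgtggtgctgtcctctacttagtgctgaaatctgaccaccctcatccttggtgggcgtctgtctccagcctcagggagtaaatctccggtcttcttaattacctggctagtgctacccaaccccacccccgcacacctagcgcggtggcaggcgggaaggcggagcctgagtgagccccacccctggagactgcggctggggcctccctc
Pdk2: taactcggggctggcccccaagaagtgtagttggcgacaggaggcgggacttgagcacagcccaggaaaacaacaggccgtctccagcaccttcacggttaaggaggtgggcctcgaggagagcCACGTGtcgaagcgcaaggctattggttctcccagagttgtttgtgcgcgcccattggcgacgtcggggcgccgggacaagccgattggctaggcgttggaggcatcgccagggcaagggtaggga
Slc16a3: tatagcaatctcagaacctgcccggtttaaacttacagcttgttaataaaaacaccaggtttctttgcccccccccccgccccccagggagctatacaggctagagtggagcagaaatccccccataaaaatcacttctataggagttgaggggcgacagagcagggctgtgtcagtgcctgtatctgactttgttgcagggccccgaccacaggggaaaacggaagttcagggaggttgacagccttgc
Pdk1: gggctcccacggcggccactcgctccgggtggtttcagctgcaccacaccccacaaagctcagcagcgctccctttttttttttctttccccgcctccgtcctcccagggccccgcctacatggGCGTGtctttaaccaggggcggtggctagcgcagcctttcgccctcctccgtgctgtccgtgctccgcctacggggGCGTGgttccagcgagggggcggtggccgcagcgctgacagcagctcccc
The Pdk1 window held GCGTG at 2 places, and the Pdk2 window held CACGTG, the E-box, at 1 place, which contains ACGTG on both strands. The Ckmt1 and Slc16a3 windows held neither. ACGTG was in the window of 15 of the 46 members (32.6%) and in 18.2% of 20756 genes, GCGTG in 18 members (39.1%) and in 35.6% of genes, and CACGTG in 6 members (13.0%) and in 6.93% of genes. The 6 were Slc16a1, Ldha, Bsg, Pdk2, Pfkm and Pcx, which did not share a direction between the fractions. TAATCC, the letters bound by the photoreceptor factor Crx, was in the window of 1 member, Cs (2.17%, with 6.12% of genes). A match is a description of letters in this window and not of binding.

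Most citric acid cycle genes were at like levels in the fractions. Of its 12 members, 8 passed the threshold between fractions at no stage: Cs (citrate synthase), Idh3a, Idh3b, Idh3g and Idh1 (isocitrate dehydrogenases), Ogdh (oxoglutarate dehydrogenase), Fh1 (fumarase) and Mdh1 (cytoplasmic malate dehydrogenase). Cs ranged only over an FPKM of 81.3 to 99.5 in the 8 libraries. Idh2 had an FPKM of 75.2 at E15 and 61.9 at E18, 76.9 (Cd73NC) and 48.5 (Cd73PC) at P2, then 52.7 against 31.6 at P5 and 43.7 against 17.7 at P8. Idh2, the mitochondrial enzyme that makes NADPH, was the exception at every stage, 1.57-, 1.65- and 2.39-fold lower in Cd73PC, and its lowest value was in P8 Cd73PC. Suclg1 stood at an FPKM of 47.8 and 44.6 in the E15 and E18 retina, and its Cd73NC and Cd73PC levels were 61.3 against 79.1 at P2, 51.2 against 83.0 at P5, and 49.4 against 78.4 at P8. This subunit of succinate-CoA ligase was 1.61- and 1.58-fold higher in Cd73PC at P5 and P8, Mdh2 (mitochondrial malate dehydrogenase) 1.55-fold higher at P5, and Sucla2, the ATP-forming partner of Suclg1, 1.51-fold lower at P2.

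In time, most movement was upward within glycolysis. From P2 to P8 in Cd73PC, 15 of the 46 genes rose, where 11.2% of all genes did, and 5 fell, where 25.7% did. In Cd73NC 18 rose (21.6% of all genes) and 5 fell (24.0%). The members' median log2 change was 0.19 in Cd73PC and 0.21 in Cd73NC, with -0.19 and -0.06 over all genes. Median-ratio scaling moved the median of all genes up by 0.19 in Cd73PC and by 0.11 in Cd73NC and left 18 members that rose and 4 that fell in Cd73PC, beside 16.2% and 18.5% of all genes. Quantile normalization moved it up by 0.20 in Cd73PC and left 17 and 4, beside 16.6% in each direction. Of the 7 genes from hexokinase to fructose bisphosphate, 6 rose in Cd73PC (Hk1, Hk2, Gpi1, Pfkl, Pfkp and Pfkfb2) and 5 in Cd73NC, and of the 7 for pyruvate entry none rose in either fraction. Aldoa rose 2.13-fold in Cd73PC and 2.60-fold in Cd73NC, Pfkfb2 2.82- and 1.74-fold, and Ckmt1 3.97- and 4.94-fold.

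Other genes moved to a different extent in the fractions, or passed the threshold in 1 of them. Aldoc and Eno2 rose 18.8- and 7.85-fold in Cd73NC and 1.5- and 1.64-fold in Cd73PC. Slc16a1 and Hk2 rose 2.84- and 2.71-fold in Cd73PC, with log2 changes of -0.04 and -0.06 in Cd73NC. Slc2a1 fell 2.40-fold in Cd73NC, with a log2 change of -0.26 in Cd73PC. Idh1, Idh2 and Ldhb fell in both. Of the bipolar cell markers, all 8 were higher in Cd73NC than in Cd73PC at P8, while 4 of 6 measured at P2 were higher in Cd73PC. Their summed FPKM in Cd73NC rose mainly after P5, from 13.3 (P2) through 74.3 (P5) to 1521 (P8). The Cd73NC changes above followed this course only in part. Eno2 in Cd73NC also rose more after P5 (14.5, 33.7 and 121 in order of age). Aldoc made most of its rise by P5 (3.34, 47.9 and 80.5), and Slc2a1 fell from P2 to P8 (343, 233 and 142). Red cell markers went from 133 to 7007 in Cd73NC and from 40.2 to 2764 in Cd73PC over that time, and microglia markers from 9.24 to 193 and from 53.7 to 147. The part of these cells was not tested.

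**Figure D4:**
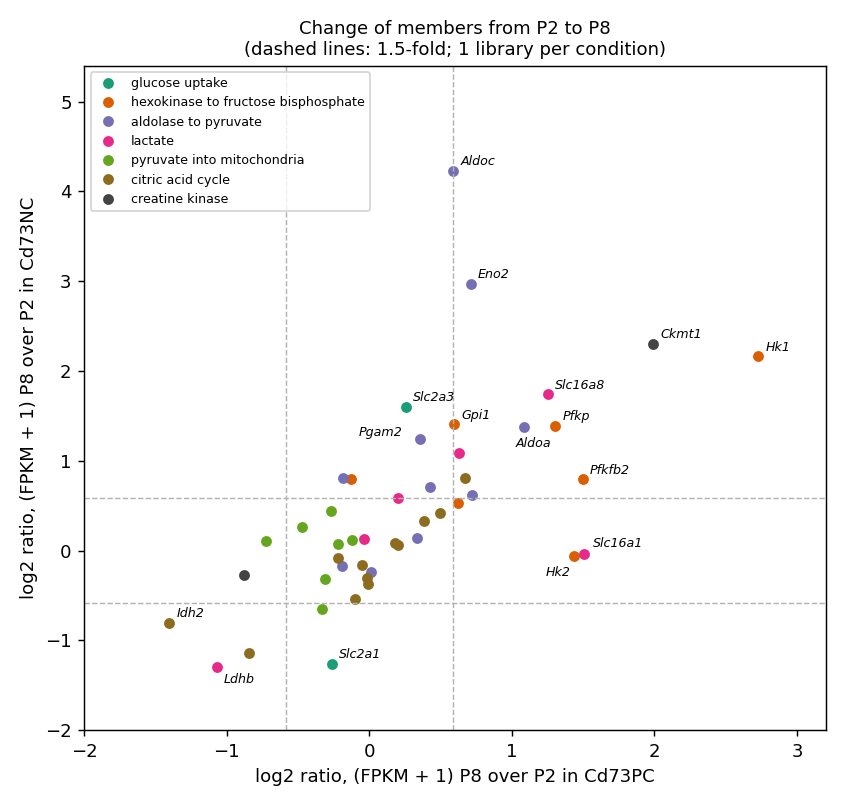
Log2 ratio of FPKM + 1 at P8 over P2 in Cd73PC (horizontal axis) and in Cd73NC (vertical axis) for the 46 genes, coloured by step, with dashed lines at 1.5-fold and names for changes above 1.2 in size. Hk1 and Ckmt1 lie at the upper right (2.73 and 1.99 in Cd73PC), and Ldhb and Idh2 at the lower left.

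In the embryonic retina, 4 of 45 measured members rose from E15 to E18 (7.6% of all genes did) and none fell (3.47% of all genes did). They were Aldoc (2.86-fold), Ckmt1 (2.16-fold), Eno2 (2.41-fold) and Ckb (1.53-fold). Aldoc, Ckmt1 and Eno2 also rose from P2 to P8 in both fractions. Under quantile normalization 4 rose and 1 fell, beside 6.16% and 5.19% of all genes.

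Related genes outside the list were read from 10 lists of the neighbouring pathways, of which 96 of 99 symbols were in the files. In Cd73PC, 12 of 77 measured were higher and 19 lower at P2, 14 and 23 of 76 at P5, and 12 and 29 of 77 at P8, to be read against the shares of all genes given above. Among further glycolytic genes, Hkdc1, which encodes a hexokinase-like protein, had an FPKM of 63.8, 62.4 and 30.4 in the Cd73NC libraries of P2, P5 and P8 and 16.2, 13 and 4.68 in the Cd73PC ones. In Cd73NC at P2 and P5 it thus stood above Hk1, and its log2 ratios between fractions were -1.91, -2.18 and -2.47. Pfkfb3, the paralog of Pfkfb2 with the strongest kinase activity, was at 11.5, 10.5 and 12.2 in the Cd73NC libraries of P2, P5 and P8 and 3.55, 2.06 and 1.54 in the Cd73PC ones, the opposite direction to Pfkfb2. Slc16a7 and Emb, the latter a partner of monocarboxylate carriers like basigin, were also lower at all 3 stages. Their log2 ratios at P2, P5 and P8 were -0.59, -0.85 and -1.52 for Slc16a7 and -1.41, -1.39 and -1.52 for Emb. Eno3, the muscle enolase, was higher (0.67, 1.33 and 0.96). Fbp1, Fbp2, Pck1 and G6pc of gluconeogenesis were under an FPKM of 1 in every library.

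Around the citric acid cycle, Ogdhl, a paralog of Ogdh, was higher in Cd73PC at all 3 stages (1.75, 1.18 and 0.61), and Suclg2, the GTP-forming partner of Suclg1, was lower (-1.40, -1.29 and -1.45), reaching an FPKM of 1.16 in P8 Cd73PC. Of 12 genes of the malate aspartate shuttle and anaplerosis, Me1, the cytoplasmic malic enzyme that yields NADPH and pyruvate, was higher at each stage, at 2.22, 8.90 and 10.2 in the Cd73NC libraries of P2, P5 and P8 and 22.5, 32 and 49.1 in the Cd73PC ones. Got1, the cytoplasmic aspartate aminotransferase, was higher too (0.71, 1.34 and 1.12), and Me3, a mitochondrial malic enzyme, lower (-1.28, -1.50 and -1.39). In the pentose phosphate pathway H6pd was higher (0.68, 0.90 and 1.29) and Tkt, transketolase, lower (-1.21, -0.75 and -1.07). Nxnl1 and Nxnl2 encode the rod-derived cone viability factors, the first of which binds basigin on cones. Both were higher in Cd73PC, with log2 ratios of 4.59, 2.83 and 3.98 for Nxnl1 and 4.47, 2.98 and 3.55 for Nxnl2.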

How the data were processed

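Poly(A)-selected RNA was sequenced in single 36-base reads. Per the labels and the methods, the authors made the reads with CASAVA 1.8.2 and bcl2fastq 1.8.4, aligned them to mm9 with TopHat2 2.0.8b, keeping reads that align at several places, and estimated the deposited FPKM per gene with Cufflinks 2.1.1, whose values and bounds were used here. FPKM keeps no read total, so the depth is unknown in absolute terms. From the steps between low values (FPKM under 0.3), relative depth was 0.966 to 1.61 times that of the E18 library, and 11153 to 12414 genes had an FPKM of 1 or more.

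Rows of 787 small RNAs were left out, and 235 symbols with more than 1 row were summed. The 20 genes with a missing value (4 to 10 failed estimates per library) were left out of each comparison or fit that needed that value. No member row had failed. Ratios were log2(FPKM + 1) differences between 2 libraries, and genes past 1.5-fold with an FPKM of 1 or more in either library were counted, beside the same count over all genes. Single stages and ages have 1 library per condition and no test. As both fractions of a stage came from the same retinal samples, the fraction difference was tested with limma 3.58.1 in R 4.3.3 over the 3 stage pairs (stage as block, variance trend, Benjamini-Hochberg adjustment over 13057 genes). This test was chosen after the data were seen. The count past 1.5-fold and the limma test were tried on simulated data with known changes. For limma these changes were the same at all 3 stages, so the trial did not cover differences that vary with age. The members, their steps and the marker and pathway lists were chosen with earlier results of these data known. Values in every library are given for paralog families, for the 10 members with the largest and the 10 with the smallest mean ratio between fractions, and for the 10 with the largest change from P2 to P8 in Cd73PC. Pathway genes are named when past 1.5-fold in 1 direction at all 3 stages, except 1 that is not reported here, and others (Pdk3, Pdk4, Hif1a, Pgm2, Pygm, Epas1, Hif3a, Vegfa, the gluconeogenesis genes and the markers Gngt2, Gnat2 and Rpe65) after their values were seen. Alternatives were the pseudocount, filter, threshold, scaling, Cufflinks bounds and the handling of duplicate and failed rows. Windows of 32 bases and promoters were searched in the NCBIM37 genome with GENCODE vM1, which placed all 46 members on a gene of the same symbol. Python 3.11.15, numpy 2.4.6, pandas 2.3.3 and matplotlib 3.10.9 were used.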

Additional observations from a re-analysis of the deposited data

Results flagged for a closer look

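A few related genes moved in opposite directions in libraries of different age or fraction, and none of these differences was tested, since each value rests on 1 library per condition. On the log2(FPKM + 1) scale, Pygm, the muscle glycogen phosphorylase, was 1.36 higher in Cd73PC than in Cd73NC at P2 and stood at -1.32 at P8. Epas1, the hypoxia-inducible factor 2 alpha, stood at 3.06 at P2, at -1.06 at P5 and at -0.94 at P8. From P2 to P8 it stood at -1.62 in Cd73PC and at 2.39 in Cd73NC. Microglia markers were higher in Cd73PC for 7 of 7 genes at P2 and for none at P5 and P8, and their part was not tested. Hif3a stood at 0.63 at P2 and -0.65 at P8, and Vegfa at -1.14 in Cd73PC and 0.88 in Cd73NC from P2 to P8. No member changed sign between comparisons in this way past 1.5-fold on both sides.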

How the results depend on the processing

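The limma test over stage pairs, chosen after the data were seen, called 6 members higher and 13 lower in Cd73PC. These calls stood beside 8.9% and 19.2% of all genes. With no replicate block it called 0 higher and 5 lower, with 3.13% and 5.05% of all genes. With no filter on low values it called 0 and 0, with 0% of all genes in each direction. Median-ratio scaling gave 10 higher, with 11.3% of all genes. Leaving out each stage pair gave 1 to 6 higher and 1 to 12 lower. The lowest counts were without the P5 pair, with 1.37% and 0.842% of all genes. At a threshold of 2-fold, 4 members were higher and 8 lower in Cd73PC at P5, and 8 were lower at P2. From P2 to P8, 11 were higher and 3 lower in Cd73NC, and 8 higher and 2 lower in Cd73PC. These counts are smaller by construction of the stricter limit. From E15 to E18, 2 members rose with a filter of FPKM 10 or more, and 1 fell under quantile normalization. The share of all genes was not taken at 2-fold or with the FPKM 10 filter, so those counts do not set the members against other genes. No value changed sign past the threshold. Without a pseudocount, the log2 ratio of Slc16a8 at P2 was 3.74 and its change in Cd73NC 4.14, and that of Slc2a3 at P5 was -2.11. Of 368 member values, 151 lay outside their own Cufflinks bounds. These bounds were therefore not used as errors of the values above, and served only in alternative settings. Absolute depth and the spread between animals are unknown, and genes with copies elsewhere in the genome are the least certain.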

Other observations

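Of the genes of glycogen turnover, 2 of 7 measured were higher and 3 lower in Cd73PC at P2, 1 and 3 of 7 at P5, and 0 and 7 of 8 at P8, with 14.5% and 25.0%, 12.3% and 27.0%, and 13.0% and 31.3% of all genes higher and lower at these stages. Gys1 (glycogen synthase), Gbe1 (branching enzyme) and Pgm1 (a phosphoglucomutase) were lower at all 3 stages, with log2 ratios at P2, P5 and P8 of -0.67, -1.09 and -1.17 for Gys1, -1.06, -1.71 and -1.14 for Gbe1 and -0.98, -0.88 and -0.96 for Pgm1. Pgm2, another phosphoglucomutase, stood at 1.08, 0.60 and 0.23, and Pygm, the muscle glycogen phosphorylase, at 1.36, -0.33 and -1.32. Of 14 hypoxia and glycolysis regulators, 2 were higher and 2 lower at P2, 1 and 7 of 14 at P5, and 2 and 8 of 13 at P8, to be read against the same shares of all genes. Bnip3, a mitophagy receptor and known hypoxia target, stood at -0.83, -1.12 and -1.90, and Egln3, an oxygen-sensing prolyl hydroxylase, at -1.16, -1.21 and -0.88. Hif1a, the hypoxia-inducible factor 1 alpha, stood at 0.46, 0.30 and 0.87, so that its transcript was higher past 1.5-fold in Cd73PC at P8 while Bnip3 and Egln3 were lower.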
